A study of Homo sapiens with 4 samples.

Results

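Protein-coding genes whose annotated body spans at least 500 kb were followed through 4 RNA libraries of U2OS cells, an established human osteosarcoma line. The table held 60676 genes, of which 19955 were protein-coding and outside the mitochondrial chromosome. Of these, 318 spanned 500 kb or more (end minus start in the deposited coordinates, build hg38), and 93 of the 318 had at least 100 reads summed over the 2 input libraries. These 93 genes, called long genes here, lay on 21 chromosomes and spanned 501.412 to 2305 kb, with a median of 709 kb. The genes were chosen by their input reads and annotated span, so input levels and folds over input are descriptions and carry no test.

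Nearly all of the length of such a gene is intron. A polymerase needs hours to cross it, so its transcripts are slow to complete, and the mature mRNA is far shorter than the gene. Genes of this size are common among cell adhesion molecules, synaptic proteins, ion channels and developmental transcription factors, and several cover common fragile sites, regions that break when replication is slowed. Many are best known from the brain.

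The study asked which RNAs are recovered from nuclei with LC3B, a ubiquitin-like protein of autophagosome membranes that is also present in the nucleus. RNA was recovered without crosslinking from nuclear lysate with an LC3B antibody or with IgG, and an input without antibody was sequenced for each pull-down (native nuclear RNA immunoprecipitation, nRIP-seq). All 4 groups were the same untreated line, and polyadenylated RNA was amplified with a kit for very small amounts. With 1 library in each group, replicates are lacking, no p-value is given, and every interval covers counting error only, because amplified reads without molecular identifiers are not independent molecules.

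The libraries held 10000914 to 10886762 reads. Mitochondrial genes took 20.8% to 22.8% of the inputs and 0.774% to 1.76% of the pull-downs, so levels are given throughout in CPM, scaled to the reads outside mitochondrial genes. At least 1 read was found for 22947 to 23915 genes in 3 of the libraries, but for 14440 in the IgG pull-down. Of 8 osteoblast and osteosarcoma markers, SP7 had 0 reads in every library and BGLAP had 0 to 2, while RUNX2, ALPL, SPARC and COL1A1 were present in all 4. The summed level of the list ran from 1725 CPM in the IgG pull-down to 3283 CPM in the LC3B pull-down. Markers of blood summed to at most 0.482 CPM and those of endothelium to at most 2.51 CPM in any library. Those of neurons and glia summed to 0.102 CPM in the IgG pull-down and to 13.3 to 20.4 CPM in the others. The epithelial list summed to 1113 to 2582 CPM, nearly all of it KRT8.

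Span is a property of the annotation, and the start sites of 2 long genes show what it can and cannot stand for. The windows below are 300 bases each (250 before and 50 after a start), from RefSeq on GRCh38.p14 and written 5′ to 3′ on the gene's strand. CAMTA1 (ENSG00000171735), a calmodulin-binding transcription activator, had the highest deposited TPM of the long genes in the inputs. Its first and last annotated starts lie 919 kb apart, which is 93.4% of its span, so a transcript from the inner start covers only a small part of the locus. CNTNAP2 (ENSG00000174469), a neurexin-family adhesion protein and the longest of the 93 genes, has 1 start in the same set, near the outer end of its 2305 kb. Capitals mark GC boxes, searched as GGGCGG on either strand.
CAMTA1, outermost start, chr1:6785204-6785503, + strand: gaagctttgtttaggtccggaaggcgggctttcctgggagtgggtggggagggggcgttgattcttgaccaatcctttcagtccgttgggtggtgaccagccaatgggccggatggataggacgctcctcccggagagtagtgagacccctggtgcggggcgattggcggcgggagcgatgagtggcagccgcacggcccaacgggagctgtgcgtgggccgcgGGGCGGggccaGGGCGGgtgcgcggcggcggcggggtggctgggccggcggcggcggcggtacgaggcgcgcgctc
CAMTA1, innermost start, chr1:7704486-7704785, + strand: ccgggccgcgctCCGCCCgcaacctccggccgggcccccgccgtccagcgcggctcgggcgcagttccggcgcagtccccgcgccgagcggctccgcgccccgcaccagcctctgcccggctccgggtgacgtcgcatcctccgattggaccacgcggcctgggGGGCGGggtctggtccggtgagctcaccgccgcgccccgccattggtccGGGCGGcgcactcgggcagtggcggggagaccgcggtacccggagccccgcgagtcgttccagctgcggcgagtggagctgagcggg
CNTNAP2, outermost start, chr7:146116551-146116850, + strand: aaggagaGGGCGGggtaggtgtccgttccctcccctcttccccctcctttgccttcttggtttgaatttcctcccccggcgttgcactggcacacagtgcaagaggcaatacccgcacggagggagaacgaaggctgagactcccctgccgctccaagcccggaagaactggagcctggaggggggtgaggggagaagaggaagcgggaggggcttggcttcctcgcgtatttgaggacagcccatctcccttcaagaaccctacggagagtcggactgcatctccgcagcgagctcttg
The CAMTA1 windows are 71.3% and 79.3% G or C with 2 and 3 GC boxes, and the CNTNAP2 window is 61.7% with 1. A window was found for 79 long genes, 48 of which had more than 1 start. The outermost window held a GC box in 48 of the 79 (60.8%), and 44.95% of all 35116 RefSeq windows of this length did. These sets are unlike, as the latter holds every listed start of 27305 genes, inner starts included. Outermost windows of shorter genes were not counted, so the difference cannot be tied to span. A match describes letters only.

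Other features of the long genes were summarised as well. They had a median of 15 annotated transcripts against 8 for the 9975 shorter protein-coding genes with the same read minimum. Their transcript length, read from the ratio of counts to TPM and set to 1 for the median gene, had a median of 1.24 against 0.999 for shorter genes, although their genomic span was far larger. Their input reads were lower, with a median of 269 over both inputs against 631. In RefSeq 6 of the 93 loci span less than 500 kb, among them EGLN3 at 26.8 kb and RUNX1 at 261.5 kb, while TENM3 spans 659 kb in the deposited coordinates and 1355 kb in RefSeq. No other protein-coding gene overlapped 69 of the genes. Of all 93, 11 overlapped a gene of any class with more input reads than their own. Of these 11, 9 overlap a protein-coding gene, and WDPCP and SBF2 are also among the 69, since the deposited table lists MDH1 as a polymorphic pseudogene and SBF2-AS1 as a lncRNA. Because no source used here gives the counting tool or strand setting, the counts of the 11 are uncertain.

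At the span threshold the 3 genes just inside were SPOCK3 (501.412 kb), DNAH14 (503.03 kb) and CPQ (504.412 kb), and just outside were DIAPH3 (498.345 kb), CACNA2D1 (497.333 kb) and DST (496.662 kb). At the read threshold FGF14 with 101 input reads and ARHGAP24 with 103 were just inside, and IL1RAPL1 and FGGY with 98 and AUTS2 with 97 just outside.

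Together the 93 genes took 0.228% (0.225 to 0.231, 95% exact binomial interval) of the reads of the IgG input and 0.230% (0.227 to 0.233) of those of the LC3B input. They took 0.221% of the LC3B pull-down (0.218 to 0.224) and 0.187% of the IgG pull-down (0.184 to 0.190). On these totals the IgG pull-down stood below the other 3 libraries. The order turned with mitochondrial genes in the totals, where the shares were 0.176% and 0.182% in the IgG and LC3B inputs, 0.184% with IgG and 0.220% with the LC3B antibody, and the last stood apart. Reads per gene ran from 41 to 1359 (median 131) in the IgG input and from 46 to 1331 (median 142) in that for LC3B. They ran from 51 to 1545 (median 149) with the LC3B antibody. With IgG they ran from 0 to 1503 (median 131). There 14 of the 93 genes had 0 reads (15.1%, against 10.6% of shorter genes) and 23 had at most 10, while 0 long genes were without a read in the other 3 libraries. In bulk RNA, fewer cells with a transcript and less of it per cell cannot be told apart.

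The 6 genes with the most input reads were ADK, CAMTA1, PARD3, INPP4B, FAF1 and PALM2AKAP2, an order that is not corrected for length. ADK, which encodes adenosine kinase, had 1359 and 1331 reads in its IgG and LC3B inputs and 1503 and 1545 after the pull-downs. Its fold over input was 0.956 (95% exact conditional binomial interval 0.888 to 1.03) for LC3B and 0.946 (0.879 to 1.02) for IgG, and both intervals include 1. CAMTA1 had 853, 921, 1060 and 658 reads in the same order (IgG input, LC3B input, then IgG and LC3B pull-down), which holds for every 4 read counts below. Its LC3B fold over input was 0.588 (0.531 to 0.651) and its IgG fold 1.06 (0.970 to 1.16), so only the LC3B pull-down stood apart. PARD3, a polarity protein of tight junctions, had 817, 889, 703 and 1044 reads, with folds over input of 0.967 (0.883 to 1.06) for LC3B and 0.736 (0.665 to 0.815) for IgG. INPP4B, a phosphoinositide phosphatase, had 681, 675, 693 and 1215 reads and stood above its input with LC3B at 1.48-fold (1.35 to 1.63). FAF1, a ubiquitin-binding adaptor, had 658, 684, 1064 and 850 reads and stood above its input with IgG at 1.38-fold (1.25 to 1.53). PALM2AKAP2, a joined gene for a paralemmin and a kinase A anchoring protein, had 572, 524, 253 and 375 reads. It was below its input in both pull-downs, at 0.589 (0.515 to 0.674) with LC3B and 0.378 (0.325 to 0.439) with IgG.

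Corrected for length the order changes. By the mean deposited TPM of the inputs, and picked after the values were seen, CAMTA1 stood first at 199.78 and ADK followed at 92.1 and FAF1 at 45.3. The relative transcript length of CAMTA1 was 0.233, the lowest of the 93 genes. Its first place thus rests on a short length that the authors do not state. The median over the 93 genes was 6.02 TPM against 16.1 for shorter genes, and the lowest was FGF14, a channel-binding member of the fibroblast growth factor family, at 0.385 TPM.

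**Figure D1:**
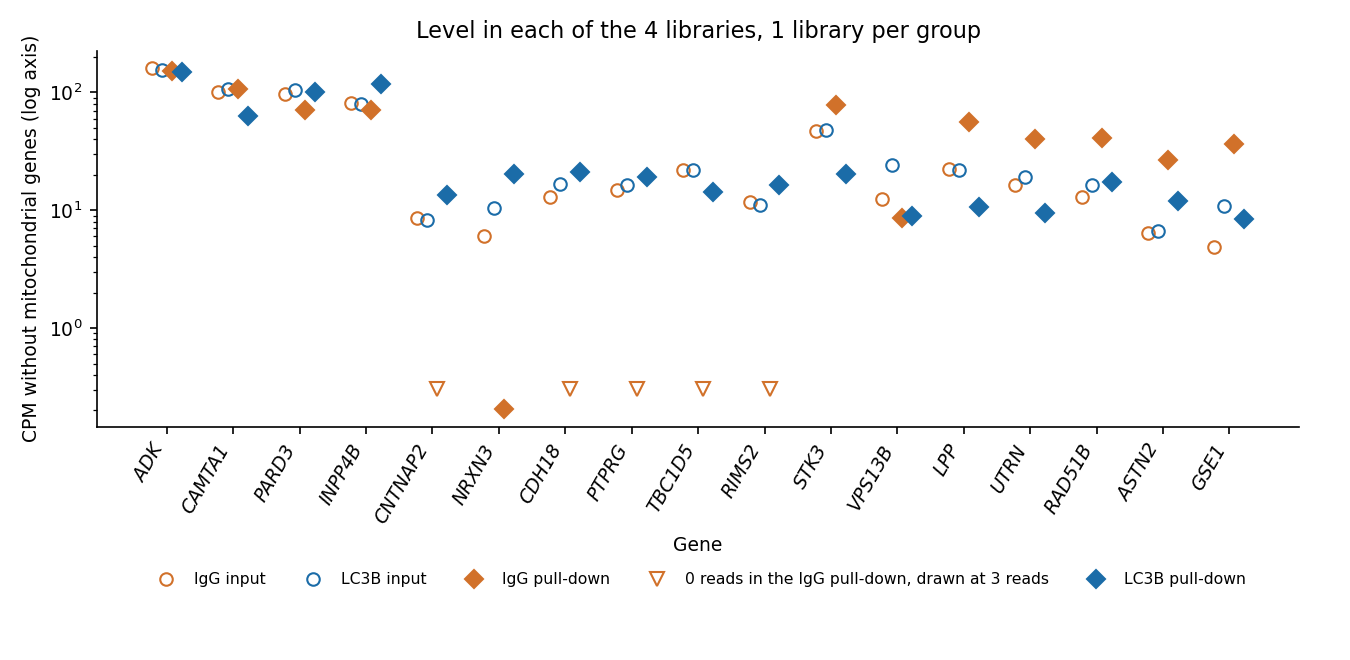
Level of 17 long genes in each of the 4 libraries, in CPM outside mitochondrial genes on a log axis; each symbol is 1 library, and a triangle marks a gene with 0 reads in the IgG pull-down, drawn at the level of 3 reads. The inputs nearly coincide for most genes, and the IgG pull-down holds both the lowest symbols (CNTNAP2, NRXN3, CDH18, PTPRG, TBC1D5, RIMS2) and the highest for LPP, UTRN, RAD51B, ASTN2 and GSE1.

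The inputs were close to each other. A gene was called higher where the lower bound of its interval was at least 2 and lower where the upper bound was at most 0.5. Between the LC3B and the IgG input 0 long genes were called higher and 0 lower, where 0.0298% and 0.0397% of all 10068 protein-coding genes with the same read minimum were called. By point fold 1 long gene (GSE1) was past 2 (1.08%, where 0.209% of all were) and 0 were at 0.5 or less (where 0.139% were). The median log2 ratio was 0.00 (log2 of CPM + 0.5 over CPM + 0.5, here and below). The genes furthest apart were GSE1, with 41 and 92 reads, a fold of 2.21 (1.51 to 3.27), and VPS13B, with 105 and 205 reads, a fold of 1.92 (1.51 to 2.45).

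In the LC3B pull-down most long genes stayed near their input. Of the 93, 0 were called higher than in the LC3B input, against 1.09% of all protein-coding genes, and 2 (2.15%) were called lower, against 5.69%. The fold lay between 0.5 and 2 for 82 genes. The median log2 ratio was -0.09, beside -0.06 for shorter genes, and the interquartile range was 0.65 log2 units against 0.97. With mitochondrial genes in the totals the median of all protein-coding genes moved from -0.06 to 0.26 and that of the long genes to 0.22, so that their distance stayed at -0.03 under both. The calls turned with those totals: 2 long genes were called higher (2.15%, where 5.86% of all were), RGS7 at 2.55 (2.20 to 2.96) and GMDS at 2.68 (2.05 to 3.53), and 0 lower (where 1.94% were).

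The genes called lower with LC3B were STK3 and VPS13B. STK3 (ENSG00000104375, chromosome 8, 98371228 to 98942827), a kinase of the Hippo pathway, had 397 and 410 reads in the IgG and LC3B inputs, and 774 and 210 in the corresponding pull-downs. Its LC3B fold over input was 0.422 (0.355 to 0.499), and its IgG fold was 1.67 (1.48 to 1.89), so the pull-downs lay on opposite sides of the inputs. VPS13B, a lipid transfer protein of the Golgi, had 105, 205, 85 and 92 reads. Its LC3B fold was 0.369 (0.286 to 0.475), but its inputs differed, and against both inputs summed the fold was 0.485 (0.380 to 0.614) and was not called. VPS13B also overlaps COX6C, which had 7512 input reads on the other strand. With mitochondrial genes in the totals the folds were 0.528 for STK3 and 0.463 for VPS13B, and neither was called.

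By point fold alone, 3 genes reached 2 with LC3B (3.23%, where 3.77% of all did) and 8 stood at 0.5 or less (8.60%, where 10.9% did). The 3 were picked after their values were seen. RGS7, a regulator of G protein signalling, had 231 and 255 reads in its IgG and LC3B inputs and 275 and 630 after the pull-downs. Its LC3B fold was 2.03 (1.76 to 2.36) beside 1.02 (0.852 to 1.22) for IgG. GMDS, an enzyme of GDP-fucose synthesis, had 96, 77, 35 and 200 reads, with an LC3B fold of 2.14 (1.64 to 2.82). EGLN3, an oxygen-sensing prolyl hydroxylase, had 52, 53, 151 and 131 reads and was high in both pull-downs. It overlaps SPTSSA, which had 1313 input reads.

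The IgG pull-down spread the long genes widely. Against the IgG input 36 of 93 were called lower (38.7%, where 28.5% of all protein-coding genes were) and 5 higher (5.38%, where 7.23% were). The fold lay between 0.5 and 2 for 44 genes. The median log2 ratio was -0.69, beside -0.31 for shorter genes, and the interquartile range was 3.23 log2 units against 1.97. The class of 100 to 200 kb was much the same, with 39.5% called lower and an interquartile range of 2.93, as was that of 200 to 500 kb, with 39.8% and 3.44. With mitochondrial genes in the totals the median was -0.35 for the long genes and 0.03 for all, and in the deposited TPM -0.54 and -0.32. With those totals 32 of the 36 calls remained, and those of PALM2AKAP2, GMDS, RORA and KIAA1217 were lost. Setting genes with 0 reads to 3 reads could not move the main median of -0.69 and is no check of it. At 3 reads those genes stay at least 17.1-fold below the IgG input. Of the 36 genes called lower, 14 had 0 reads in the IgG pull-down, 9 had 1 to 10 and 13 had more. In the LC3B comparison 0 of these 36 were called in either direction, where 1.09% of all protein-coding genes were called higher and 5.69% lower. That count was not made for shorter genes called lower with IgG, so no link between the pull-downs can be read from it. The IgG pull-down was also the library with reads on the fewest genes and with the lowest sum of neuron and glia markers, and the part of either in these counts was not tested.

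**Figure D2:**
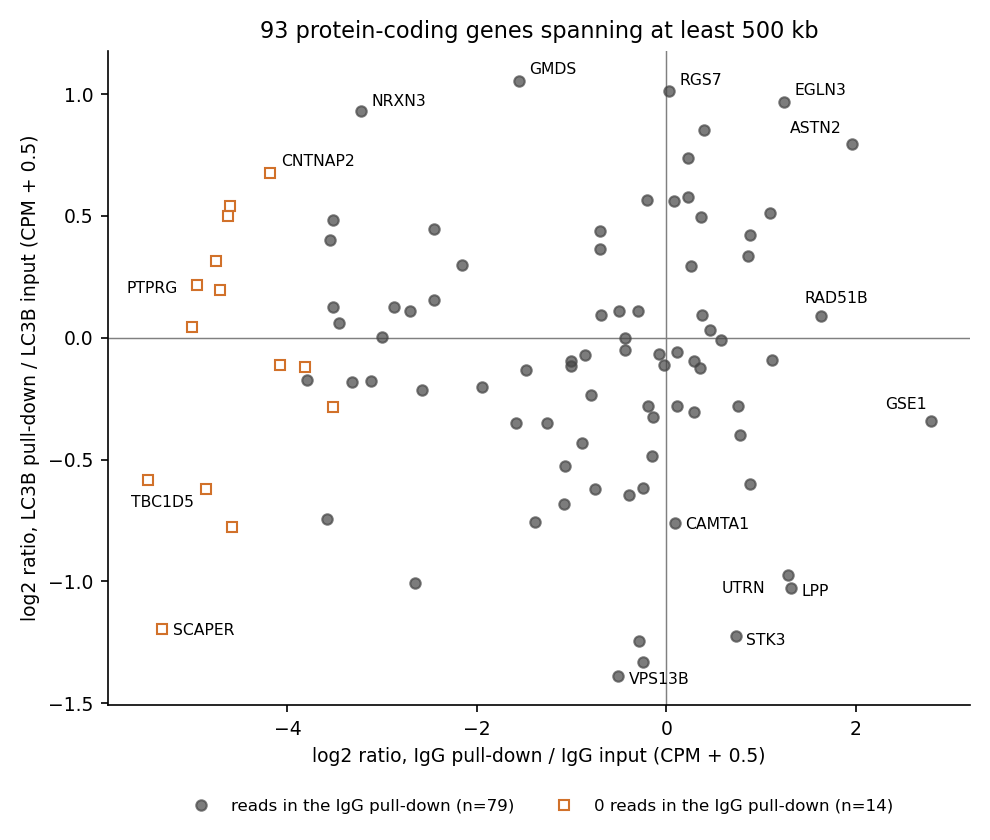
Each of the 93 long genes by its log2 ratio in the IgG pull-down over input (horizontal axis) and in the LC3B pull-down over input (vertical axis), with open squares for the 14 genes with 0 reads in the IgG pull-down, whose horizontal position depends on the added 0.5 CPM. The cloud is several times wider along the IgG axis than along the LC3B axis, and shows no common slope (Pearson r = -0.01 over 93 genes).

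The share called moved with read number. Among genes with 100 to 300 input reads, the IgG pull-down was called lower for 27 of 49 long genes (55.1%) and for 46.4% of 2753 shorter genes, and 12 of the 49 (24.5%) had 0 reads against 28.5%. Among those with 300 to 1000 reads, 8 of 38 long genes (21.1%) were called lower against 28.2% of 3596 shorter genes, so the order of long and shorter genes turned between the bands. Of the 6 genes above 1000 reads, 1 was called lower (16.7%, against 15.003% of shorter genes). That gene was PALM2AKAP2, whose call was lost with mitochondrial genes in the totals (0.481) and in the deposited TPM (0.648). How much of the 38.7% goes with low read number and how much with span was not tested.

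Across all protein-coding genes the median log2 ratio of the LC3B pull-down over input was 0.33 for spans under 10 kb, 0.06 for 10 to 30 kb, -0.23 for 30 to 100 kb and -0.37 for 100 to 200 kb. It was -0.23 for 200 to 500 kb and -0.09 for the long genes. The medians thus fell up to 200 kb, and the longest genes lay closer to 0 than those of intermediate span. In the IgG pull-down the medians were 0.12, -0.15, -0.50, -0.80, -0.71 and -0.69 in the same order of classes, with the long genes near the other classes above 100 kb. Among genes with 100 to 300 input reads the long genes stood at -0.01 with LC3B and -1.95 with IgG, beside -0.24 and -1.98 for spans of 100 to 200 kb. The 16 genes of 1000 kb or more had a median of 0.23 with LC3B and -1.70 with IgG, where 8 of the 16 were called lower, against 28.5% of all protein-coding genes.

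**Figure D3:**
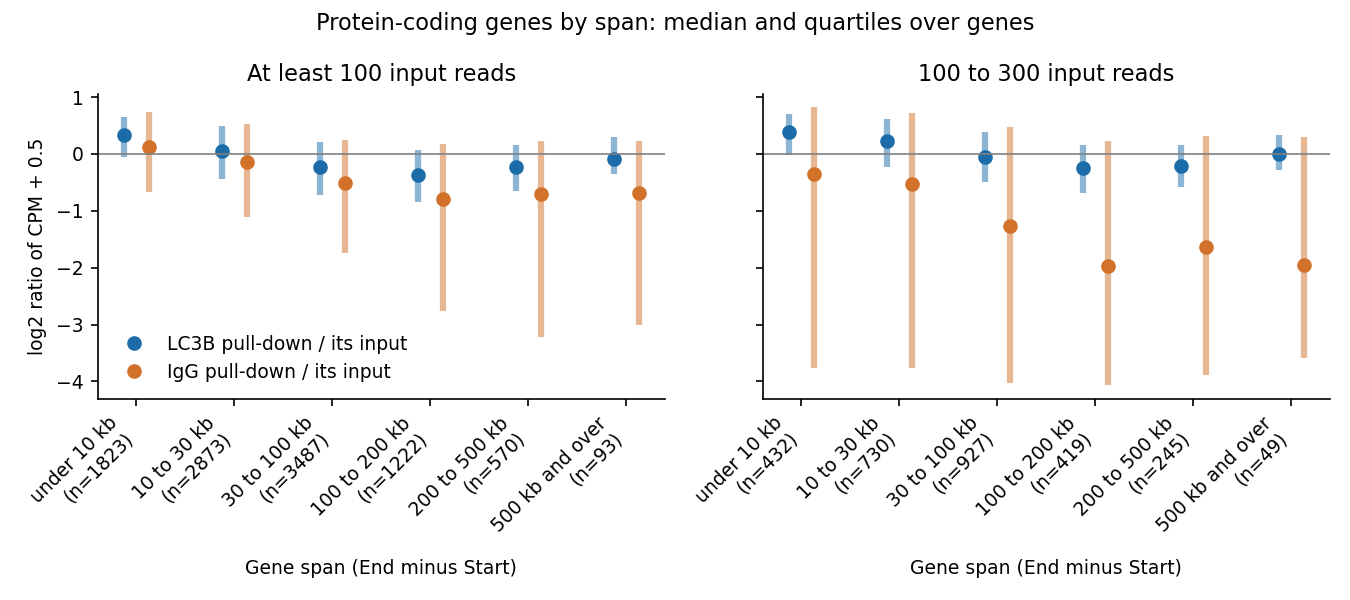
Median (points) and quartiles (bars) of the log2 ratio of each pull-down over its own input, by class of gene span, for all protein-coding genes with at least 100 input reads (left) and for those with 100 to 300 (right). The LC3B medians fall from 0.33 to -0.37 and return to -0.09 in the class of 500 kb and over, while the IgG medians stay between -0.69 and -0.80 above 100 kb in the left panel and the lower quartiles drop below -2.

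Transcript length moved with the IgG values too. Split at the terciles of all protein-coding genes, the IgG median was 0.09 for the 19 long genes with short transcripts, -0.40 for the 29 with middle ones and -1.38 for the 45 with long ones. The LC3B medians were 0.03, 0.11 and -0.13. All 14 genes with 0 IgG reads were in the middle or long class, which held 29 and 45 of the 93 long genes. Shorter genes showed the same relation. Spearman's rho of transcript length with the IgG log2 ratio was -0.30 in long and -0.29 in shorter genes.

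Long genes with 0 reads in the IgG pull-down numbered 14 and included TBC1D5, SCAPER, MDGA2, EXOC4, PTPRG, CDH18, RIMS2, BCAS3, PDE10A, MCTP1, CNTNAP2, MECOM and ARHGAP24. All 14 had 51 to 219 reads in the LC3B pull-down. With 3 reads taken for 0, their level in the IgG input was at least 17.1-fold to at least 71.3-fold above that of the IgG pull-down, and their LC3B level at least 16.1-fold to at least 69.1-fold above it. Against the LC3B input they went both ways: 7 of the 14 were above 1 and 7 below, with the whole interval above 1 for 4 and below 1 for 4. This even split depended on the totals. With mitochondrial genes in them, the intervals of PTPRG (1.17 to 1.83), MDGA2 (1.03 to 1.63) and BCAS3 (1.12 to 1.87) also lay above 1. Those of TBC1D5 (0.661 to 1.03) and EXOC4 (0.624 to 1.03) then included 1. SCAPER (0.400 to 0.692) and PDE10A (0.504 to 0.983) stayed below 1. Of these 14 genes, 11 overlap no other protein-coding gene.

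TBC1D5, a Rab GTPase-activating protein of the retromer, had 183 and 186 reads in the IgG and LC3B inputs, and 0 and 149 in the corresponding pull-downs. Its LC3B fold over input was 0.660 (0.528 to 0.823), below 1, and its LC3B level was at least 47.0-fold above the IgG pull-down. Its span is 1288 kb in the deposited coordinates and 585.5 kb in RefSeq. SCAPER, an endoplasmic reticulum protein that binds cyclin A, had 164, 162, 0 and 83 reads and the lowest LC3B fold of the 14, 0.422 (0.320 to 0.553). EXOC4, a subunit of the exocyst, had 118, 149, 0 and 116 reads and an LC3B fold of 0.641 (0.498 to 0.823). These genes were below 1 in both pull-downs, though the threshold was passed with IgG alone.

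CNTNAP2 had 72 and 71 reads in its IgG and LC3B inputs and 0 and 141 after the pull-downs, the highest LC3B fold of the 14 at 1.64 (1.22 to 2.21). CDH18, a cadherin, had 109, 144, 0 and 219 reads, an LC3B fold of 1.25 (1.01 to 1.56) and an LC3B level at least 69.1-fold above the IgG pull-down. RIMS2, a scaffold of the presynaptic active zone, had 98, 95, 0 and 170 reads and an LC3B fold of 1.47 (1.14 to 1.91). In these genes the LC3B pull-down was the highest library and the IgG pull-down the lowest. MCTP1, a calcium-binding membrane protein, had 100, 85, 0 and 148 reads, with an LC3B fold of 1.43 (1.09 to 1.89). In the deposited TPM that fold was 0.720. PTPRG, a receptor tyrosine phosphatase, had 126, 141, 0 and 200 reads, with a fold of 1.17 (0.937 to 1.46). MDGA2, an adhesion protein that binds neuroligins, had 131, 138, 0 and 173 reads, with a fold of 1.03 (0.820 to 1.30). The intervals of the last 2 include 1.

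The genes called higher in the IgG pull-down were GSE1, ASTN2, RAD51B, LPP and UTRN. GSE1, a coiled-coil protein of histone demethylase complexes, had 41 and 92 reads in the IgG and LC3B inputs, and 361 and 87 in the corresponding pull-downs. Its IgG fold over input was 7.53 (5.44 to 10.7). Its inputs differed, and it overlaps GINS2, which had 2260 input reads on the other strand. ASTN2, an astrotactin that acts in neuron migration, had 54, 57, 261 and 124 reads, with folds over input of 4.13 (3.07 to 5.65) for IgG and 1.79 (1.30 to 2.50) for LC3B. In the deposited TPM its IgG fold was 1.94 and was no longer called. It overlaps TRIM32, which had 610 input reads on the other strand. RAD51B, a factor of homologous recombination, had 108, 139, 403 and 180 reads, with folds of 3.19 (2.58 to 3.98) for IgG and 1.07 (0.850 to 1.34) for LC3B.

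LPP, a LIM-domain protein of focal adhesions, had 187 and 189 reads in its IgG and LC3B inputs and 554 and 110 after the pull-downs. Its IgG fold was 2.53 (2.14 to 3.01) and its LC3B fold 0.479 (0.375 to 0.609). UTRN, which encodes utrophin, a dystrophin relative that ties actin to the membrane, had 137, 164, 398 and 99 reads. Its IgG fold was 2.49 (2.04 to 3.04) and its LC3B fold 0.497 (0.383 to 0.642). In both genes the inputs nearly coincided and the pull-downs lay on opposite sides of them. The UTRN call is close to the threshold and was lost under trimmed-mean (TMM) scaling, with a fold of 2.43.

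Between the pull-downs 32 of 93 long genes were called higher with LC3B than with IgG (34.4%, where 27.3% of all protein-coding genes were) and 6 lower (6.45%, where 7.71% were). The median log2 ratio was 0.57, beside 0.24 for shorter genes. In the deposited TPM it fell to 0.27, beside 0.19 for all protein-coding genes, so most of the distance was not seen on that scale. This comparison uses the same IgG pull-down as the preceding one, so its values are not a second measurement. The 6 lower genes were LPP at 0.188 (0.152 to 0.231), GSE1 at 0.228 (0.178 to 0.289), UTRN at 0.236 (0.187 to 0.294), STK3 at 0.257 (0.220 to 0.2996), KAZN at 0.379 (0.309 to 0.462) and DENND1A at 0.387 (0.315 to 0.474). KAZN, a desmosome-associated protein, had 136, 123, 350 and 140 reads, and DENND1A, an activator of the endosomal GTPase Rab35, had 153, 173, 335 and 137. For both, the IgG pull-down was the high library, and the LC3B pull-down was at 0.937 (0.730 to 1.20) of its input for KAZN and 0.652 (0.517 to 0.821) for DENND1A.

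Dividing each pull-down by its own input first, with 0.5 added to each count, called 33 long genes higher with LC3B (35.5%, where 26.0% of all were) and 6 lower (6.45%, where 6.82% were). RAD51B joined the lower genes at 0.335 (0.247 to 0.455), and KAZN at 0.426 (0.312 to 0.583) was no longer called. PTPRG, RIMS2 and MCTP1 had the furthest lower bounds among the higher genes. With 3 reads taken for 0 their ratios were at least 57.3, at least 56.3 and at least 55.9.

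Adhesion proteins were the largest group by role, with 22 of the 93 genes. With LC3B 0 were called in either direction and 15 stood above 1, and their median log2 ratio was 0.26. With IgG 10 were called lower (45.5%, where 28.5% of all protein-coding genes were) and 2 higher (LPP and UTRN, 9.09%, where 7.23% were), 3 had 0 reads, and the median was -0.57. NRXN3, a presynaptic neurexin spanning 1698 kb, had 51 and 89 reads in the IgG and LC3B inputs, and 2 and 211 in the corresponding pull-downs. Its LC3B fold over input was 1.95 (1.52 to 2.53) and its IgG fold 0.0335 (0.00396 to 0.128). LRRC4C, a postsynaptic ligand of netrin-G spanning 1346 kb, had 140, 154, 33 and 231 reads, with folds of 1.23 (1.003 to 1.52) for LC3B and 0.202 (0.134 to 0.296) for IgG. PTPRK, another receptor tyrosine phosphatase of cell contacts, had 481, 395, 456 and 518 reads and folds of 1.08 (0.945 to 1.23) and 0.811 (0.712 to 0.924). Log2 ratios of the adhesion genes with IgG ran from -4.95 (PTPRG, at 0 reads) to 1.32 (LPP), while their LC3B folds ran from 0.479 to 1.95. The 8 shorter genes of the same list that met the read minimum had an LC3B median of 0.57, with 0 called.

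Common fragile site genes numbered 5. With LC3B 0 were called and the median was -0.12, or 0.17 with mitochondrial genes in the totals, which moved all genes alike. With IgG 3 of the 5 were called lower, where 28.5% of all protein-coding genes were, among them CNTNAP2 and RORA. WWOX, an oxidoreductase at a fragile site on chromosome 16, had 156 and 146 reads in its IgG and LC3B inputs and 194 and 264 after the pull-downs, with folds of 1.49 (1.21 to 1.83) for LC3B and 1.06 (0.857 to 1.32) for IgG. IMMP2L, a mitochondrial inner membrane peptidase, had 114, 140, 228 and 139 reads and went the other way, with folds of 0.817 (0.642 to 1.04) and 1.71 (1.36 to 2.16). RORA, a nuclear receptor, had 98, 82, 35 and 77 reads and an IgG fold of 0.306 (0.201 to 0.454), which turned to 1.38 in the deposited TPM and was 0.389 (0.256 to 0.577), not called, with mitochondrial genes in the totals. The fragile site genes therefore shared no pattern.

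Regulators of small GTPases and membrane traffic numbered 12. With LC3B 1 was called lower (VPS13B, 8.33%, where 5.69% of all protein-coding genes were) and 2 stood above 1, with a median of -0.41. With IgG 7 were called lower (58.3%, where 28.5% of all protein-coding genes were) and 5 had 0 reads (41.7%, where 10.6% of shorter genes did). The IgG median of the list was -2.73, or -2.39 with 3 reads taken for 0. These shares were not matched for read number, and the 12 genes had 103 (ARHGAP24) to 571 (DNM3) input reads. Among genes of 30 to 100 kb with 100 to 300 input reads, 48.4% were called lower with IgG and 29.9% had 0 IgG reads. The 50 shorter genes of this list had medians of -0.40 with LC3B and -0.21 with IgG. The long members were thus like the shorter ones with LC3B and lower with IgG, which was not tested. The 50 shorter genes were not matched for read number either, so the IgG difference cannot be tied to span. DNM3, a dynamin, had 263 and 308 reads in the IgG and LC3B inputs, and 151 and 345 in the corresponding pull-downs. It overlaps PIGC, which had 1509 input reads on the other strand. PSD3, an exchange factor for ARF GTPases, had 259, 246, 141 and 184 reads and was below 1 in both pull-downs, at 0.616 (0.506 to 0.748) with LC3B and 0.466 (0.377 to 0.574) with IgG.

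Transcription factors and chromatin regulators also numbered 12. With LC3B 0 were called, but 11 stood below 1 and the median was -0.30, or 0.02 with mitochondrial genes in the totals. With IgG the median was -0.08, or 0.26 with those totals. Of the 12, 3 were called lower (25%, where 28.5% of all protein-coding genes were), FOXP1, RORA and MECOM. The RORA call was lost with those totals (0.389), and its IgG fold was 1.38 in the deposited TPM. ZBTB20, a zinc finger repressor, had 469 and 475 reads in its IgG and LC3B inputs and 497 and 460 after the pull-downs, with folds of 0.797 (0.700 to 0.908) and 0.907 (0.797 to 1.03). FOXP1, a forkhead repressor named after its values were seen, had 277, 262, 40 and 348 reads, with folds of 1.09 (0.929 to 1.29) for LC3B and 0.124 (0.0864 to 0.173) for IgG. It was the factor above 1 with LC3B. MECOM, a zinc finger factor with a SET-like domain, had 67, 67, 0 and 75 reads.

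The 5 genes listed as transporters, pumps and channels had an LC3B median of -0.07, or 0.23 with mitochondrial genes in the totals, with 0 called. With IgG 4 of the 5 were called lower, 2 at 0 reads, where 28.5% of all protein-coding genes and 46.4% of shorter genes with 100 to 300 input reads were. The median was -3.32, or -3.13 with 3 reads taken for 0. Only KCNMA1 and KCNQ5 are pore-forming potassium channel subunits, and MCTP1 and TMEM117 are membrane proteins without such a role. KCNMA1 had 53 and 72 reads in the IgG and LC3B inputs, and 32 and 83 in the corresponding pull-downs and was not called. KCNQ5 had 68, 57, 8 and 75 reads, with an IgG fold of 0.101 (0.0418 to 0.210). TMEM117 had 55, 50, 2 and 53 reads, with an IgG fold of 0.0311 (0.00368 to 0.118).

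Among 4 genes of kinase, phosphodiesterase and lipid signalling, STK3 was called lower with LC3B and PDE10A, a cyclic nucleotide phosphodiesterase, lower with IgG. Each is 1 of 4 genes (25%), where 5.69% of all protein-coding genes were called lower with LC3B and 28.5% with IgG. PDE10A had 97 and 92 reads in its IgG and LC3B inputs and 0 and 63 after the pull-downs. CDK14, a cyclin-dependent kinase of Wnt signalling, had 475, 473, 298 and 425 reads, with folds of 0.740 (0.647 to 0.845) and 0.537 (0.463 to 0.622). INPP4B was the member above its input with LC3B. The LC3B median of the 4 was -0.60, with STK3, PDE10A and CDK14 below 1.

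Metabolic, glycosylation and mitochondrial genes numbered 7, with medians of 0.30 with LC3B and 0.23 with IgG. With LC3B 0 were called, and with IgG 1 was called lower (14.3%, where 28.5% of all protein-coding genes were), GMDS. Its IgG fold was 0.312 (0.205 to 0.464), which was 0.801 in the deposited TPM and 0.397 (0.261 to 0.590) with mitochondrial genes in the totals, and was called in neither. The 3 genes of RNA binding, processing and translation had an LC3B median of 0.44, and 0 were called in either pull-down. RBMS3, an RNA-binding protein spanning 1436 kb here and 729.3 kb in RefSeq, had 177 and 144 reads in the IgG and LC3B inputs, and 126 and 239 in the corresponding pull-downs, with folds of 1.37 (1.11 to 1.69) and 0.609 (0.481 to 0.770). CDKAL1, which modifies a lysine tRNA, had 311, 346, 178 and 393 reads, with folds of 0.935 (0.807 to 1.08) and 0.490 (0.405 to 0.591).

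Genes of cell division, replication and repair numbered 4, with medians of -0.72 with LC3B and -0.59 with IgG. With LC3B 0 were called. With IgG 1 was called lower and 1 higher (25% each, where 28.5% and 7.23% of all protein-coding genes were). CEP112, a centrosomal protein, had 179 and 201 reads in its IgG and LC3B inputs and 170 and 100 after the pull-downs, with folds of 0.410 (0.319 to 0.523) and 0.812 (0.655 to 1.01). DIAPH2, a formin, had 146, 130, 23 and 76 reads and was called lower with IgG at 0.135 (0.0828 to 0.210), beside 0.481 (0.358 to 0.644) with LC3B. DIAPH2 was below 1 in both pull-downs, while RAD51B was high with IgG. CEP112 was below 1 with LC3B, but its IgG interval includes 1. With mitochondrial genes in the totals the CEP112 fold with IgG was 1.03.

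Cytoskeletal and nuclear envelope genes numbered 5, all of them below 1 with LC3B and 0 called, with a median of -0.24, or 0.08 with mitochondrial genes in the totals. With IgG UTRN was called higher and ANK3, the membrane adaptor ankyrin-G, lower, with 47, 63, 2 and 67 reads and a fold of 0.0364 (0.00428 to 0.139). UTRN and ANK3 were each 1 of 5 genes (20%), where 7.23% of all protein-coding genes were called higher and 28.5% lower with IgG. ERC1, a scaffold at the cell cortex, had 308, 314, 205 and 323 reads and folds of 0.847 (0.723 to 0.992) and 0.569 (0.475 to 0.682). The 4 cilium genes had medians of -0.46 with LC3B and -0.27 with IgG, the latter 0.07 with mitochondrial genes in the totals. SPAG16, a protein of the axoneme, had 155 and 170 reads in the IgG and LC3B inputs, and 152 and 79 in the corresponding pull-downs, with an LC3B fold of 0.383 (0.289 to 0.502), just short of the threshold. BBS9, a subunit of the BBSome, had 83, 70, 4 and 121 reads and folds of 1.42 (1.05 to 1.94) for LC3B and 0.0412 (0.0110 to 0.110) for IgG. No ubiquitin ligase of its list met both minimums, and 20 of the 93 genes were in no list.

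**Figure D4:**
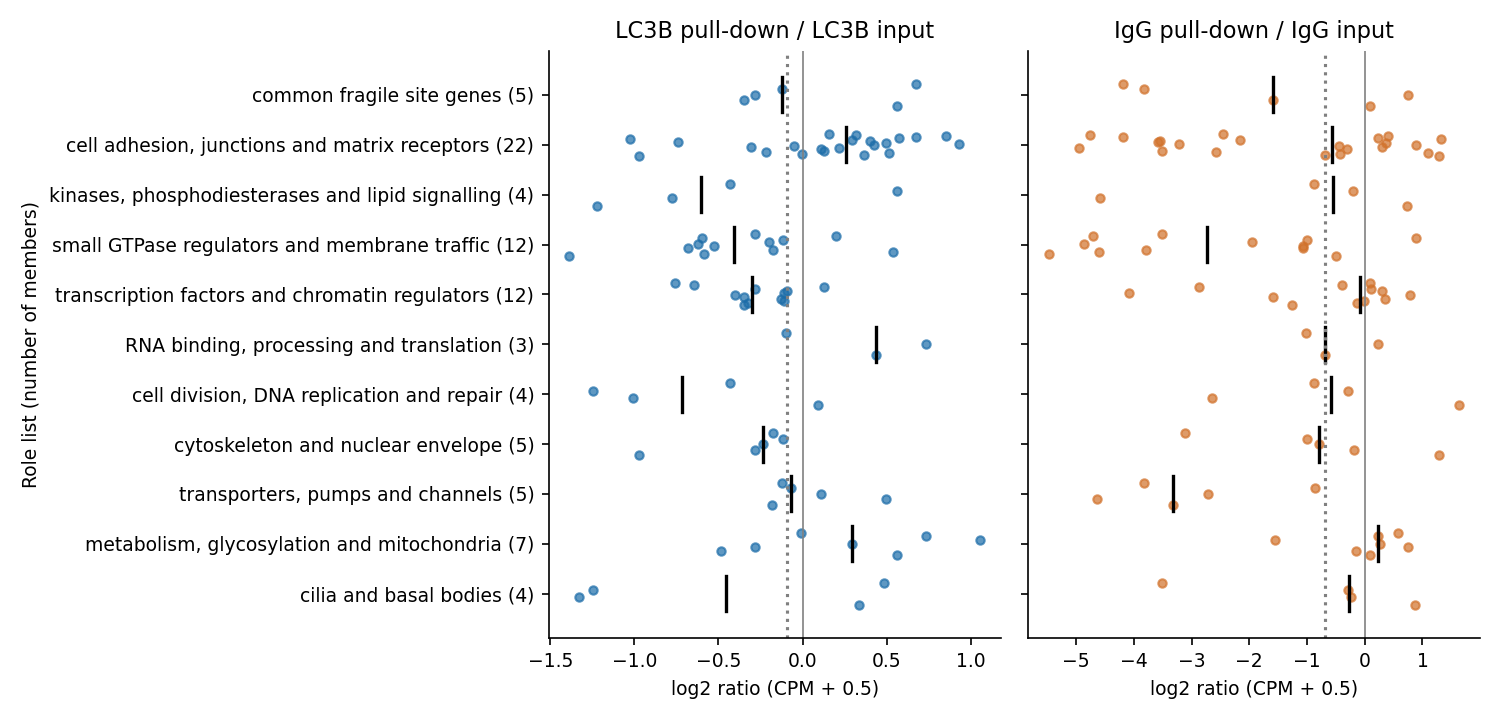
Log2 ratio of each pull-down over its own input for the long genes in 11 role lists (number of genes in parentheses); each point is 1 gene, short black bars are list medians, dotted lines the medians over all 93 genes and thin lines 0. With LC3B all points lie between -1.39 and 1.06, and with IgG the lists of small GTPase regulators and of channels have the lowest medians, -2.73 and -3.32.

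Across the 93 genes the levels of the inputs tracked each other closely, with Pearson r = 0.97 between log2 CPM values. The LC3B input and its pull-down had r = 0.87 and the IgG input and its pull-down r = 0.60, against 0.92 and 0.76 for shorter genes. The LC3B and IgG folds over input did not track each other in these genes: r was -0.01 and Spearman's rho 0.02, where shorter genes had 0.20 and 0.27. These are correlations across genes of single libraries, which share their depth and are not replicates, and the difference between long and shorter genes was not tested.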

How the data were processed

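Polyadenylated RNA of 1 library per group was analysed: IgG input, LC3B input, IgG pull-down and LC3B pull-down. The authors deposited raw read counts per gene and TPM values, per the file headers. Counts were grouped with commas, which were removed, and each was then a whole number; this is why their unit is listed as other in the record of deposited columns. The authors' TPM is scaled within each library and its transcript lengths are unstated. The submitters' processing notes name cutadapt 2.8, STAR 2.7.1a and hg38. The counter, its annotation, its strand setting and its handling of reads with several alignments: not given in the sources used here.

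Folds are ratios of shares of the total outside the 37 mitochondrial genes, with exact conditional binomial (Clopper-Pearson) 95% intervals, computed with Python 3.11.15, scipy 1.17.1 and pandas 2.3.3 and tested on simulated counts. Log2 ratios had 0.5 CPM added. For a gene with 0 reads the bound uses 3 reads, worth 0.289 to 0.357 CPM in these libraries. The input-corrected ratio has a log-normal counting interval. Named genes were the 6 with the most input reads, the 6 with the largest span, the 6 furthest called genes per direction and pull-down comparison, the 3 furthest per direction of the corrected ratio, the 2 genes of each role list with the most reads, called genes of lists with under 10 members and the 3 genes on each side of each threshold. The genes, the 12 role lists and the tests were chosen with earlier results of these data known. Some genes that met this rule are not reported here. RefSeq loci were matched by symbol and chromosome. Alternatives were other totals, TMM and median-of-ratios scaling in purpose-written code, deposited TPM, point folds, other bounds, thinning, other minimums and leaving out overlapped genes.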

Additional observations from a re-analysis of the deposited data

Results flagged for a closer look

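In 17 long genes the intervals of both pull-downs excluded 1 on opposite sides of their inputs, which was not counted for shorter genes. The number therefore cannot be tied to span. Of these 17, the 11 given here were also called with IgG, and the other 6 (INPP4B, STK3, TENM3, DENND1A, RBMS3 and NFIA) were not. With mitochondrial genes in the totals all 11 stayed on opposite sides, but INPP4B, DENND1A and NFIA did not. The IgG interval of INPP4B was then 0.995 to 1.23. The LC3B intervals were then 0.648 to 1.03 for DENND1A and 0.748 to 1.18 for NFIA. Each group was 1 library, so the difference between pull-downs was not tested, and each value here is the LC3B fold over input. LPP at 0.479 and UTRN at 0.497 were called higher with IgG and had LC3B intervals below 1. The other 9 were called lower with IgG and had LC3B intervals above 1. They were LRRC4C at 1.23, CDH18 at 1.25, SUMF1 at 1.38, BBS9 at 1.42, MCTP1 at 1.43, RIMS2 at 1.47, CNTNAP2 at 1.64, NRXN3 at 1.95 and GMDS at 2.14. In the deposited TPM the LC3B fold of MCTP1 was 0.720, below 1, and those of CDH18 and SUMF1 were 1.02 and 1.07. The rest of the 9 stood at 1.19 (LRRC4C) to 2.14 (GMDS) in TPM. The IgG call of GMDS was lost with mitochondrial genes in the totals (0.397) and in the deposited TPM (0.801), and that of SUMF1 in the TPM (0.631). SUMF1, which activates sulfatases, had 108 and 93 reads in its IgG and LC3B inputs and 19 and 156 after the pull-downs, and it overlaps LRRN1, which had 1890 input reads on the other strand.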

How the results depend on the processing

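No paired analysis was possible because each group holds 1 library. Counts below are of long genes called higher and lower in turn, where the main values were 0 and 2 (LC3B over input), 5 and 36 (IgG over input), 32 and 6 (LC3B over IgG) and 0 and 0 (inputs). For LC3B over input, mitochondrial genes in the totals gave 2 and 0 with a median of 0.22, deposited TPM 4 and 5, point folds 3 and 8, and bounds of 4 and 0.25 left 0 lower; no read minimum gave 1 higher of 301 genes, at least 500 reads 1 lower of 24, spans of 300 kb 1 and 6 of 302, and spans of 1000 kb 0 lower of 16 with a median of 0.23. Genes overlapped by no protein-coding gene gave 0 lower of 69, by no gene with more reads (chosen after seeing the data) 1 of 82, and both inputs summed 1. Of all protein-coding genes, mitochondrial totals called 5.86% and 1.94%, TPM 3.02% and 13.9%, and point folds 3.77% and 10.9%. Bounds of 4 and 0.25 called 0.119% lower. Such shares are not given for other minimums, spans, overlap rules or summed inputs. The numbers of genes under these settings hold in every comparison below. For IgG over input, mitochondrial totals gave 9 higher, TPM 9, point folds 8, bounds of 4 and 0.25 1, no minimum 14 and 103, at least 50 reads 9 and 69 of 141, at least 500 reads 0 and 4, spans of 300 kb 20 and 123, spans of 1000 kb 0 and 8 with a median of -1.70, and either overlap rule 3 higher. The first 4 are 9.68%, 9.68%, 8.60% and 1.08% of the long genes, where 13.8%, 10.3%, 11.0% and 0.497% of all were called higher. For LC3B over IgG, TPM gave 12 lower, point folds 10, bounds of 4 and 0.25 1, no minimum 106 and 17, at least 50 reads 66 and 11, at least 500 reads 3 and 1, spans of 300 kb 118 and 28, spans of 1000 kb 8 and 1 with a median of 1.68, and no overlapping protein-coding gene 3 lower. In TPM 12.9% of long genes were lower, where 12.8% of all were. Point folds gave 10.8% against 11.6%, and bounds of 4 and 0.25 1.08% against 0.735%. For the inputs, TPM gave 4 and 1 (4.30% and 1.08%, where 0.983% and 0.566% of all were), point folds 1 higher (1.08%, where 0.209% were), no minimum 4 and 2, and TMM scaling a median of -0.0491. Shares on long genes with mitochondrial totals were 0.176% and 0.182% of the inputs (IgG, LC3B) and 0.184% and 0.220% of the pull-downs. Medians by class of the long genes were 0.11 for middle transcripts with LC3B; -1.95 for 100 to 300 reads, -0.14 above 1000 reads, 0.0870 for short and -1.38 for long transcripts with IgG; and 1.64 for 100 to 300 reads, -0.0444 for short and 1.09 for long transcripts for LC3B over IgG. The RORA fold with IgG reversed to 1.38 in TPM. PALM2AKAP2 lost its IgG call with mitochondrial totals (0.481) and in TPM (0.648), GMDS (0.397) and RORA (0.389) with those totals, and ASTN2 in TPM (1.94). Stricter minimums hold fewer genes by construction; other causes were not tested. At 100 input reads the interval of a fold is wide, and 1 library per group limits every value.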

Other observations

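The other 225 protein-coding genes of 500 kb or more had under 100 input reads. Of these, 29 had 0 reads in both inputs, 78 had 1 to 9 and 118 had 10 to 99, and 17 had 0 in all 4 libraries. Over their own inputs 67 (29.8%) were called lower and 9 (4%) higher with IgG, against 16.5% and 4.49% of the 9662 shorter protein-coding genes under 100 input reads. With LC3B 1 was called lower and 1 higher (0.444% each, against 0.704% and 0.838%). The 67 had 10 to 99 input reads, and of the genes in that range 56.8% of long and 48.8% of shorter ones were called lower with IgG. In the IgG pull-down 11 of them reached 100 reads, against 2 in the LC3B pull-down.

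The genes named here were picked after their values were seen. MAGI2, a junction scaffold on chromosome 7, had 17 and 41 reads in its IgG and LC3B inputs and 192 and 57 after the pull-downs, an IgG fold of 9.66 (5.88 to 16.9). ADAMTSL1, a matrix protein, had 11, 29, 143 and 45 reads, an IgG fold of 11.1 (6.03 to 22.8). GALNT17, a family member of mucin-type glycosyltransferases, had 22, 15, 145 and 38 reads, an IgG fold of 5.64 (3.59 to 9.28). DLG2, a postsynaptic scaffold, had 22, 16, 101 and 27 reads, an IgG fold of 3.93 (2.46 to 6.54). In all 4 the IgG pull-down was the highest library.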
